A study of Mus musculus with 6 samples.

Results

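The DNA replication machinery of the mouse small intestinal crypt is described here across 6 sequenced libraries. It was defined as 43 genes matched by symbol, all of them in the deposited table of 17526 genes, and all 43 were among the 12943 genes high enough to test. Crypts are the epithelial pockets between the villi, where stem cells and their dividing progeny renew the gut lining. The 3 knockout libraries came from small intestinal crypts of Fpr2VKO mice, which the labels describe as an Fpr2 knockout of the intestinal epithelium. The 3 floxed control libraries came from crypts of Fpr2f/f mice, whose genotype the labels also give as WT. Fpr2 encodes a receptor for formylated peptides, and the study asked how it bears on stem cell proliferation and differentiation. The labels name neither the driver of the deletion nor the age, sex or number of the mice. Nothing in them ties each library to a mouse of its own, so p-values cover library-to-library spread that may not be spread between mice. Fpr2 itself was not analysed here, so the genotype was not checked on the deleted gene.

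A cell copies its genome in defined steps, each carried out by its own set of proteins. The origin recognition complex, Cdc6 and Cdt1 load the ring-shaped helicase of Mcm2 to Mcm7 onto DNA, which licenses an origin. Cdc45, the GINS proteins and Mcm10 switch the helicase on, primase and the polymerases copy the strands, and Pcna is the sliding clamp that holds polymerases on DNA. Most of these genes are transcribed as cells enter S phase, under the E2F transcription factors, so in the crypt their transcripts mark the dividing compartment.

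E2F-type letters were counted in the promoters of these genes. Windows from 250 bases before to 50 bases after a transcription start came from RefSeq (build GRCm38.p6), and 36 of the 43 genes had 1 or more. The search was for TTTCCCGC, TTTCGCGC, TTTGCCGC and TTTGGCGC on both strands, where matches may overlap. Of 42 windows of replication genes 15 held a match (35.7%), against 2.26% of all 32851 windows. Of 19 windows of mitosis genes 1 held a match (5.26%). The letters TTTGAA of the cell cycle homology region, an element of mitotic promoters, were in 5 of the 42 replication windows (11.9%), in 14 of the 19 mitosis windows (73.7%) and in 17.9% of all windows. A match is a description of the sequence and does not show a bound site. Mcm4, Gins1, Gins2, Gins4, Prim2, Pole and Rfc2 had no window in the table used.

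No window of the nucleotide supply genes Rrm1, Rrm2, Tyms, Tk1 and Dut held a match, so that step has no site here. The sites below show the letters (capitals) with 10 bases on either side, for 1 gene of each of 7 steps. They are read 5′ to 3′ on the strand of the gene.
Orc1 of licensing, chr4:108579417-108579444 on the plus strand: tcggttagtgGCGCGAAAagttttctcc
Mcm5 of the helicase, chr8:75109346-75109377 on the plus strand, with overlapping matches on both strands: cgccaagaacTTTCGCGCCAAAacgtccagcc
Gins3 of origin firing, chr8:95633508-95633535 on the plus strand: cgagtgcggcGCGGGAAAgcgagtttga
Pole2 of the polymerases, chr12:69228163-69228190 on the minus strand: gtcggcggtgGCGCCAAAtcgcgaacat
Rfc3 of the clamp loader, chr5:151651191-151651228 on the minus strand: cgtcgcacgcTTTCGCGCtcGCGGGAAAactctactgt
Lig1 of the fork, chr7:13278842-13278869 on the plus strand: gccaaagtgcGCGCGAAAtctgtgtggc
Hells of chromatin copying, chr19:38930918-38930945 on the plus strand: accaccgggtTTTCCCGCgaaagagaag

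Whole windows are shown for 3 genes: Mcm6 with the most matches, Pola1 with the smallest p of the 43 genes, and Rfc1, the gene with a negative fold change and no match. The Rfc1 window belongs to a start that lies inside the annotated span of the gene. The same holds for the Pola1 window and for the Orc1, Mcm5, Pole2, Lig1 and Hells sites above. Another Lig1 window, at the edge of its annotated span, held no match.
Mcm6, chr1:128359656-128359955 on the minus strand: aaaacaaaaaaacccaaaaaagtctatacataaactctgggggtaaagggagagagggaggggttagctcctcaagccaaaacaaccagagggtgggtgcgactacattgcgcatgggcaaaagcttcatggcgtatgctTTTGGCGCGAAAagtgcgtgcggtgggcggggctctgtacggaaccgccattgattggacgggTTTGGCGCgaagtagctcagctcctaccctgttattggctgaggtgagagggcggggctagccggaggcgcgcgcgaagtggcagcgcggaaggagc
Pola1, chrX:93632106-93632405 on the minus strand: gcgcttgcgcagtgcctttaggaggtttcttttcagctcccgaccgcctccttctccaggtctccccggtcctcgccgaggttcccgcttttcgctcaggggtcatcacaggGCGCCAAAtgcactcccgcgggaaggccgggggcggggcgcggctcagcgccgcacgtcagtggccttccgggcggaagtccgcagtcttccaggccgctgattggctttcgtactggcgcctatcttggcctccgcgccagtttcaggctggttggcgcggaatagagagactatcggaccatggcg
Rfc1, chr5:65335590-65335889 on the minus strand: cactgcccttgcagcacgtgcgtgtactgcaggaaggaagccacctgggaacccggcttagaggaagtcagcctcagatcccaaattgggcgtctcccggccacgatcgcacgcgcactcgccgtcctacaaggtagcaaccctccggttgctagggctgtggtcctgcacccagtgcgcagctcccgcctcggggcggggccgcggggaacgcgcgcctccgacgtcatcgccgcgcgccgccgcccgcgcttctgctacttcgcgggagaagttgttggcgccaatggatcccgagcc
The fold changes described below did not separate genes by these letters: the median log2 fold change was 0.36 for the 15 genes with a match and 0.32 for the 21 genes with windows and no match.

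Library totals of estimated counts lay between 11108511 and 16859902, with floxed controls 1 and 3 the lowest. Comparing knockout with floxed control totals gave an exact two-sided permutation p of 0.2, where 3 libraries against 3 cannot go below 0.1. Each replication gene had between 38 and 3545 counts in a library. Levels are given as CPM, counts scaled to library size with TMM factors. The 10 crypt epithelium markers summed to between 11881 and 13643 CPM in the knockouts and between 11069 and 14140.2 CPM in the floxed controls. Of these 4 had a positive and 6 a negative log2 fold change, and 0 were called by edgeR (0.0155% of all genes). The stem cell genes Lgr5 and Ascl2, 2 of the 10, were lower in the knockouts at an unadjusted p under 0.05 by edgeR (9.63% of all genes). Lgr5 had 35, 36.3 and 20.3 CPM in knockouts 1, 2 and 3, and 97.7, 41.6 and 66.6 CPM in floxed controls 1, 2 and 3. The fibroblast markers summed to between 1.01 and 1.69 CPM in the knockouts and between 0.591 and 2.18 CPM in the floxed controls.

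Of the 43 replication genes, 42 had a positive log2 fold change in knockout over floxed control crypts (97.7%, against 48.1% of all genes tested), and none passed the test over all genes. Their median log2 fold change was 0.34, against -0.013 over all genes tested, and the range was -0.28 to 0.63. In whole crypts, a difference in the number of dividing cells and in transcript per cell cannot be told apart. By edgeR's quasi-likelihood test with Benjamini-Hochberg adjustment 0 of 43 were called at an adjusted p under 0.05, where 0.0155% of all genes were. At an unadjusted p under 0.05, 7 of 43 were higher in the knockouts (16.3%) and 0 were lower, against 4.09% and 9.63% of all genes. DESeq2 called 0 of the 43 (2.64% of all genes) and had 11 higher in the knockouts at an unadjusted p under 0.05 (4.86% of all genes). In simulated counts of 12828 genes for this comparison, the test called 2.99% of 67 genes changed 1.5-fold and 56.2% of 64 genes changed 2-fold. Each gene was drawn independently there, without the shared split of the floxed controls described below. The simulation therefore cannot say how likely a call was for these 43 genes. Of the 43 genes, 5 had every knockout above every floxed control (11.6%, against 6.99% of all genes), and 0 had every knockout below every floxed control (10.3% of all genes).

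The floxed controls were split on these genes. Floxed control 2 had more transcript than floxed controls 1 and 3 for 40 of the 43 genes (93.0%, against 39.9% of all genes). It lay above every knockout for 21 of the 43 (48.8%, against 34.8% of all genes), between knockouts for 17 and below every knockout for 5. Floxed controls 1 and 3 both lay below every knockout for 37 of the 43 (86.0%, against 20.1% of all genes). The 43 genes together summed to 2689, 2874 and 2760.1 CPM in knockouts 1, 2 and 3, and to 1871, 2996 and 1907 CPM in floxed controls 1, 2 and 3. The SD of the log2 level was larger among floxed controls than among knockouts for all 43 genes, against 69.4% of all genes tested. Its median was 0.12 in knockouts and 0.41 in floxed controls for the 43 genes, and 0.18 and 0.27 for all genes tested.

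**Figure D1:**
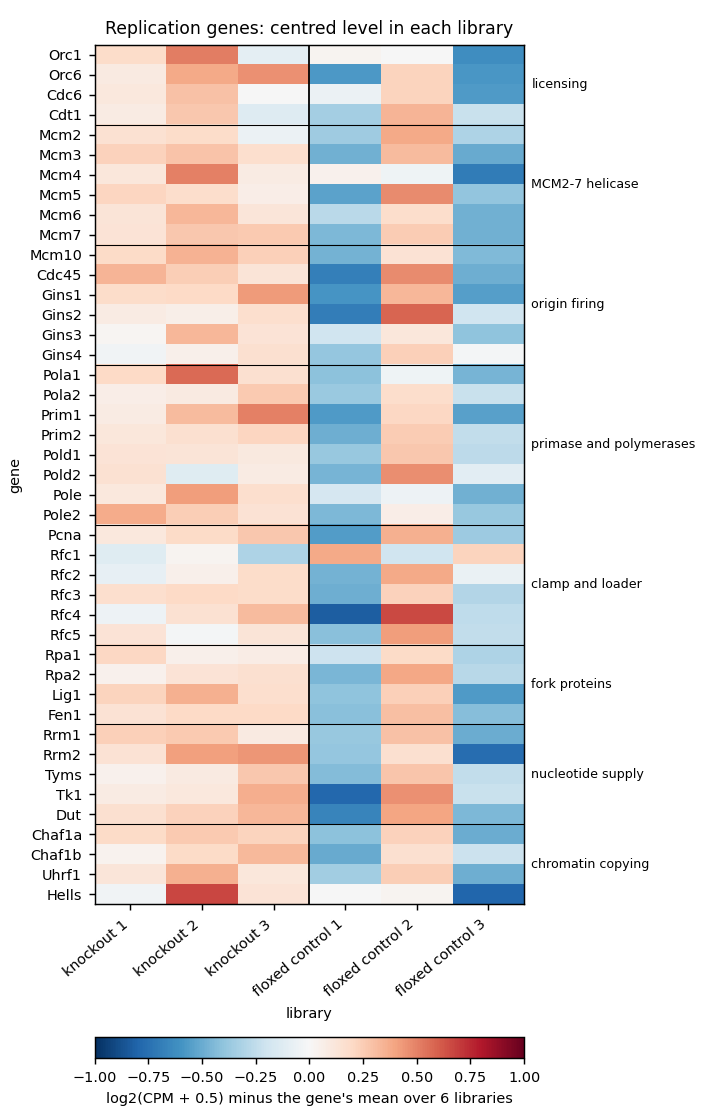
Level of each of the 43 replication genes (rows, grouped by step) in each library (columns), as log2(CPM + 0.5) minus the gene's mean over the 6 libraries. Floxed controls 1 and 3 are above the mean for 3 and 1 genes, floxed control 2 for 38, and knockouts 1, 2 and 3 for 38, 41 and 38.

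The licensing genes had a median log2 fold change of 0.32 over 4 members. Orc6, a subunit of the origin recognition complex, had 24.9, 30.5 and 32.2 CPM in knockouts 1, 2 and 3, against 15.5, 27.3 and 15.4 CPM in floxed controls 1, 2 and 3. Floxed controls 1 and 3 lay near 15 CPM and floxed control 2 overlapped the knockouts. Its log2 fold change was 0.58 ± 0.24 (SE; unadjusted p = 0.0331 and adjusted p = 0.313 by edgeR). Orc1, the ATPase subunit that binds origins with the rest of that complex, had 8.8, 11.2 and 7.16 CPM in the knockouts and 7.86, 7.67 and 4.83 CPM in the floxed controls. For Orc1 the groups overlapped and the split of the controls was different, with floxed controls 1 and 2 alike and floxed control 3 low (log2 0.41 ± 0.26, edgeR adjusted p = 0.525). The loaders Cdc6 and Cdt1 had log2 fold changes of 0.24 ± 0.22 and 0.12 ± 0.20, and for Cdt1 floxed control 2 was the highest library at 82 CPM.

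The helicase genes Mcm2 to Mcm7, whose products form the ring that unwinds DNA, had a median of 0.38 over 6 members and a range of 0.15 to 0.44. Mcm4 had 64.1, 84.1 and 62.9 CPM in the knockouts, against 61.2, 57.5 and 36.3 CPM in the floxed controls. Its groups did not overlap, although knockout 3 and floxed control 1 were close (log2 0.44 ± 0.21, unadjusted p = 0.0628 and adjusted p = 0.392 by edgeR). Mcm7 (chr5:138164583-138172111), another ring subunit, had 152, 167 and 166 CPM in the knockouts, against 101, 165 and 99 CPM in the floxed controls. Floxed control 2 lay within the knockout range there and the other controls lay lower (log2 0.41 ± 0.21, edgeR adjusted p = 0.421). Mcm5 showed the widest control range of the ring, with 134, 130.5 and 121 CPM in the knockouts and 79.6, 160.2 and 87.9 CPM in the floxed controls. Its log2 fold change was 0.23 with a 95% interval of -0.31 to 0.77. All 6 ring genes had floxed controls 1 and 3 below every knockout, and 3 of them, Mcm2, Mcm3 and Mcm5, had floxed control 2 above every knockout.

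Among the origin firing genes Mcm10, which acts as the helicase is activated, stood apart by group. Mcm10 (chr2:4990724-5012791) had 53.5, 59.8 and 55.4 CPM in the knockouts, against 33.6, 51.9 and 34.3 CPM in the floxed controls. The groups did not overlap, with floxed control 2 just below the lowest knockout (log2 0.49 ± 0.19, unadjusted p = 0.0259 and adjusted p = 0.287 by edgeR). Gins1, a subunit of the GINS complex that travels with the helicase, had 12.4, 12.6 and 14.8 CPM in the knockouts, against 7.07, 13.8 and 7.29 CPM in the floxed controls (log2 0.49 ± 0.27, edgeR adjusted p = 0.452). Gins3, the gene of lowest level per kilobase of exon among the 43, had 5.19, 6.55 and 5.65 CPM in the knockouts and 4.37, 5.57 and 3.74 CPM in the floxed controls. Cdc45, Gins2 and Gins4 had log2 fold changes of 0.38, 0.10 and 0.09, and in each floxed control 2 was the highest library. Exons of Gins2 overlap those of Gse1 on the opposite strand, and the counting is not stated to use strand, so reads of both could mix.

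The primase and polymerase genes held 4 of the 7 genes with an unadjusted p under 0.05. Pola1 (chrX:93304766-93632387), the catalytic subunit of the polymerase that starts each new strand, had 20.9, 27.1 and 20.3 CPM in the knockouts, against 13.5, 17.6 and 13 CPM in the floxed controls. The groups did not overlap, and the log2 fold change of 0.63 ± 0.20 had a 95% interval of 0.19 to 1.06 (unadjusted p = 0.00923 and adjusted p = 0.205 by edgeR). Prim1, the catalytic subunit of primase, had 32.6, 38.5 and 43.9 CPM in the knockouts, against 20.6, 35.7 and 21 CPM in the floxed controls. Floxed control 2 lay among the knockouts (log2 0.57 ± 0.23, edgeR adjusted p = 0.312).

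Pole, the catalytic subunit of the leading strand polymerase, had 43.2, 53.8 and 45.2 CPM in the knockouts, against 35.7, 38.8 and 28.6 CPM in the floxed controls. For this gene the groups did not overlap and floxed control 2 stayed close to floxed control 1 (log2 0.46 ± 0.17, edgeR adjusted p = 0.269). Its partner Pole2 had 14.2, 13 and 12.1 CPM in the knockouts, against 7.86, 11.4 and 8.27 CPM in the floxed controls, again without overlap (log2 0.51 ± 0.21, edgeR adjusted p = 0.308). The catalytic and accessory subunits of the lagging strand polymerase, Pold1 and Pold2, had log2 fold changes of 0.21 ± 0.19 and 0.029 ± 0.23. Pold2 had its highest level in floxed control 2, at 169.7 CPM, against 113 to 137 CPM in the knockouts. The non-catalytic partners Pola2 and Prim2 had log2 fold changes of 0.27 and 0.29. The 8 genes of this step had a median of 0.38.

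The clamp and its loader had the lowest median of the steps, 0.13 over 6 members. Pcna (chr2:132249286-132253180), the clamp, was the most abundant of the 43 genes per length, at 114 ± 6.6 CPM per kilobase of exon in knockouts and 91.2 ± 32.4 in floxed controls (SD, n = 3 each). Its level was 163, 173 and 183 CPM in the knockouts and 103, 194 and 118 CPM in the floxed controls, with floxed control 2 the highest library and floxed control 1 the lowest. Its log2 fold change was 0.32 ± 0.23 (edgeR adjusted p = 0.590). The pseudogenes Pcna-ps1 and Pcna-ps2 in the GENCODE M21 annotation carry the gene's name, and how their reads were assigned is not stated.

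Rfc1 (chr5:65261852-65338617), the large subunit of the clamp loader, was the member of the 43 with a negative log2 fold change, -0.28 ± 0.18 (95% interval -0.69 to 0.12, edgeR adjusted p = 0.543). It had 51.1, 56.8 and 44.7 CPM in the knockouts, against 72.5, 48.3 and 64.9 CPM in the floxed controls. Floxed controls 1 and 3 were the highest libraries for Rfc1, and knockout 3 the lowest. The small loader subunits Rfc2 to Rfc5 had log2 fold changes of 0.066, 0.34, 0.15 and 0.12, and for each of them floxed control 2 was the highest library and floxed control 1 the lowest. Rfc3 had 30.9, 31.6 and 31.3 CPM in the knockouts and 19.4, 32.2 and 22.3 CPM in the floxed controls. Rfc4 had 22.3, 25.8 and 29 CPM in the knockouts, against 12.9, 37 and 19.3 CPM in the floxed controls. On the log2 scale floxed control 2 exceeded the mean of floxed controls 1 and 3 by 1.2 for Rfc4, the largest such gap of the 43 genes, against a median of 0.67.

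The fork proteins bind and join the newly made strands, and their 4 genes had a median of 0.26. Lig1, the ligase that joins lagging strand fragments, had 105, 115 and 101 CPM in the knockouts, against 67.8, 106 and 60.5 CPM in the floxed controls (log2 0.45 ± 0.21, unadjusted p = 0.0562 and adjusted p = 0.373 by edgeR). Fen1, the nuclease that trims the flaps between those fragments, had 67.8, 70.1 and 70.2 CPM in the knockouts, against 45.7, 75.3 and 45.4 CPM in the floxed controls. The knockouts were tightly grouped for Fen1 and the controls fell on both sides of them (log2 0.32 ± 0.20, edgeR adjusted p = 0.532). Exons of Fen1 overlap those of Tmem258 on the opposite strand. Rpa1 and Rpa2, which coat unwound DNA, had log2 fold changes of 0.20 and 0.18.

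Genes of nucleotide supply had a median of 0.35 over 5 members. Rrm2 (chr12:24708254-24714146), the cell cycle regulated subunit of ribonucleotide reductase, had 53.7, 64.5 and 65.8 CPM in the knockouts, against 36.9, 54.1 and 28.3 CPM in the floxed controls. Floxed control 2 passed knockout 1 by a small margin, so the groups overlapped (log2 0.62 ± 0.22, 95% interval 0.13 to 1.12, unadjusted p = 0.0184 and adjusted p = 0.253 by edgeR). Rrm1, its large partner, had 132, 134 and 119 CPM in the knockouts, against 86.2, 137 and 79.2 CPM in the floxed controls (log2 0.35 ± 0.21, edgeR adjusted p = 0.505). Dut, which clears dUTP, had a log2 fold change of 0.41, and Tk1 and Tyms, which salvage and make thymidine nucleotides, had 0.28 and 0.24. In 4 of the 5, all but Rrm2, floxed control 2 was above every knockout.

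Genes that copy chromatin behind the fork had a median of 0.39 over 4 members. Chaf1a, the large subunit of a histone deposition factor, had 49.7, 52.3 and 50.9 CPM in the knockouts, against 32.7, 51 and 30.7 CPM in the floxed controls (log2 0.41 ± 0.20, edgeR adjusted p = 0.393). Hells, a chromatin remodeller needed for DNA methylation, had 36.2, 59.3 and 40.9 CPM in the knockouts, against 37.1, 37.9 and 21.2 CPM in the floxed controls. Knockout 2 was the high library for Hells and floxed control 3 the low one (log2 0.50 ± 0.25, edgeR adjusted p = 0.411). Chaf1b, the partner of Chaf1a, and Uhrf1, which guides the maintenance methyltransferase to new DNA, had 0.35 and 0.36. For all 4 genes floxed control 2 lay within the range of the knockouts.

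**Figure D2:**
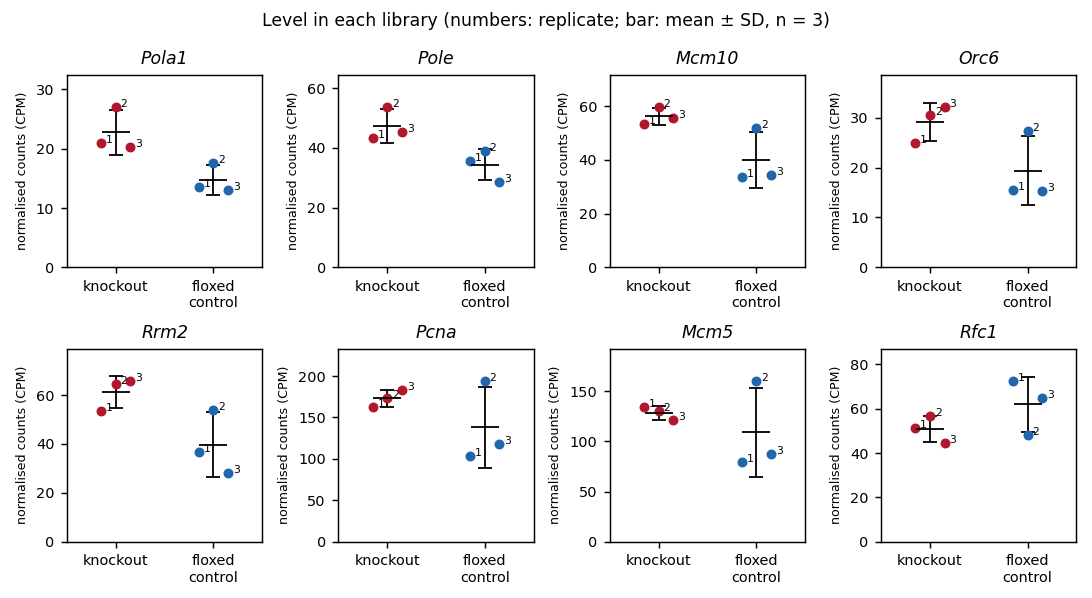
CPM (vertical axis, from 0) of 8 replication genes in each library, with knockouts left of floxed controls, replicate numbers beside the points, and the mean and SD as bars (n = 3 each). Pola1, Pole and Mcm10 show groups that do not overlap, Pcna and Mcm5 show floxed control 2 above all knockouts, and Rfc1 shows floxed controls 1 and 3 as the highest libraries.

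Floxed control 2 decided whether members were called, and leaving out any other single library called 0 of the 43. It was the highest control for 40 of the 43, so leaving it out was bound to raise their fold changes. With that library left out, 17 of the 43 passed edgeR's test over all genes and had higher levels in the knockouts (39.5%, against 1.42% of all genes in that fit, and 7.21% in either direction), and 0 passed with lower levels. The median was then 0.60. The 17 included Rrm2 (log2 0.92 ± 0.18, edgeR adjusted p = 0.0203), Orc6 (0.93 ± 0.19), Dut (0.81 ± 0.16), Mcm3 (0.73 ± 0.15) and Cdc45 (0.85 ± 0.18), with members of each of the 8 steps. With floxed controls 1 and 3 left out instead, 1 control was left, the spread came from the knockouts alone, and the lone control was assumed to vary like them. In that fit 21 of the 43 were positive (48.8%, against 53.0% of all genes), the median was -0.024 and edgeR called 0, with 1 at an unadjusted p under 0.05. Pola1 and Pole had log2 fold changes of 0.44 and 0.35 there. Pcna and Fen1 had -0.11 and -0.057, and Rfc1 had 0.14.

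**Figure D3:**
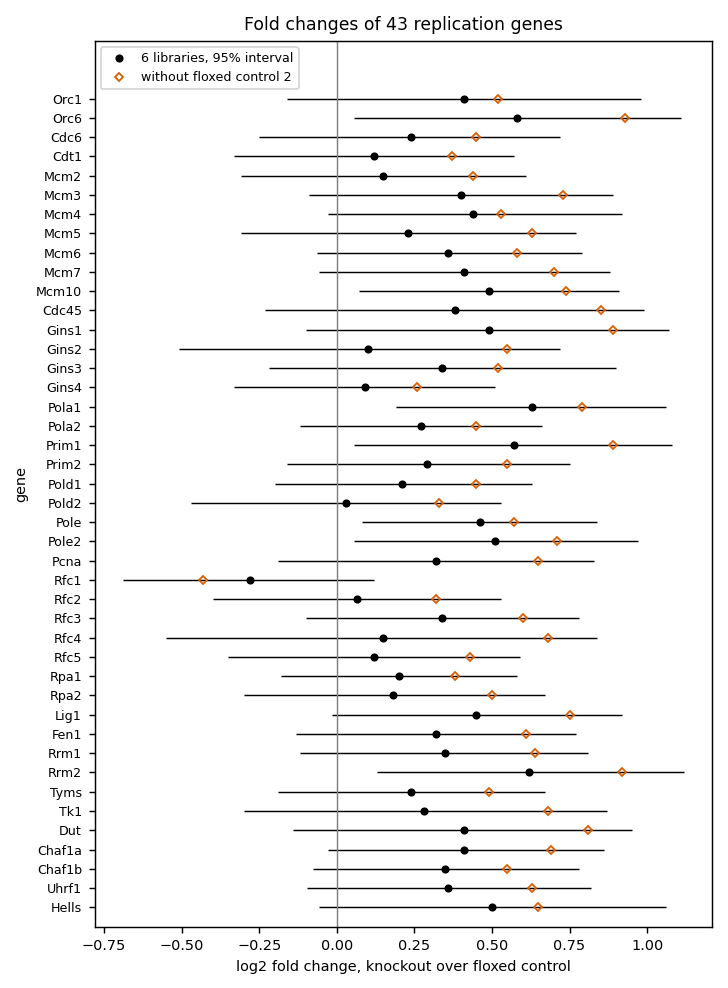
Log2 fold change of each of the 43 genes in knockout over floxed control crypts (horizontal axis), in all 6 libraries with the 95% interval from edgeR (black) and without floxed control 2 (open diamonds). The intervals of 7 genes exclude 0 in all 6 libraries, and every gene but Rfc1 lies further to the right without floxed control 2.

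Other features of the libraries also differed, some along this split and some not, and their part in it was not tested. The 12 markers of T cells and intraepithelial lymphocytes summed to 68.4, 80.5 and 88.4 CPM in knockouts 1, 2 and 3, and to 298, 76.3 and 243 CPM in floxed controls 1, 2 and 3. All 12 were highest in floxed controls 1 and 3, and Cd2 had 0 counts in knockout 3. The 9 Paneth cell markers summed to 28875, 19263 and 17713 CPM in the knockouts and to 59733, 53936 and 108635 CPM in the floxed controls, so that floxed control 2 was on the side of the controls. Enterocyte markers summed to 4503, 7183 and 8970.3 CPM in the knockouts and to 8810.3, 5478 and 11502 CPM in the floxed controls. Knockout 1 and floxed control 2 were the lowest of all libraries there. The 8 B and plasma cell markers summed to between 566 and 1124 CPM in knockouts and between 855 and 1323 CPM in floxed controls, mostly from Cd74, and 7 of the 8 were highest in floxed controls 1 and 3. The 5 erythroid markers summed to between 1.5 and 3.89 CPM in knockouts and between 5.11 and 17.2 CPM in floxed controls, and Hba-a2, Hbb-bt and Alas2 had 0 counts in some libraries. By edgeR 0 of the 11 lymphocyte markers tested and 0 of the 9 Paneth markers were called (0.0155% of all genes). At an unadjusted p under 0.05 by edgeR, 10 of the 11 and 9 of the 9 were lower in the knockouts, against 9.63% of all genes. Floxed controls 1 and 3 also had the lowest depth. The median log2 fold change of the 43 was 0.34 with all libraries thinned to the smallest total, and 0.36 with scaling computed without the 50 most abundant genes.

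The sum of clock genes set knockout 1 and floxed control 2 apart from the other 4 libraries. The enterocyte sum given above divided the libraries in the same way, and the split is named after the clock genes for short. The 14 clock genes summed to 299.7, 533 and 492 CPM in knockouts 1, 2 and 3, and to 555, 312 and 507 CPM in floxed controls 1, 2 and 3. Members differed in direction. Arntl and Npas2 were highest in knockout 1 and floxed control 2, with Arntl at 34 and 27.8 CPM against at most 12 CPM in the other 4 libraries. Clock, Per1 and Nr1d1 did not follow the split. Within the pair of knockout 1 and floxed control 2, knockout 1 was higher for 8 of the 43 replication genes (18.6%, against 44.6% of all genes) and the median log2 difference was -0.13. Within the other 4, both knockouts lay above both floxed controls for 40 of 43 (93.0%, against 26.9% of all genes) and the median log2 difference was 0.61. That pair includes floxed control 2, the highest control for 40 of the 43, so leaving out that control was bound to raise fold changes. The pair was also chosen on levels in these same libraries. Without the pair edgeR called 11 of 43 as higher in the knockouts (25.6%, against 1.42% of all genes). With the clock split as a term in the model it called 0 of 43, with 12 higher in the knockouts at an unadjusted p under 0.05 (4.82% of all genes in that fit), and the median was 0.37. The labels give no time of collection.

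**Figure D4:**
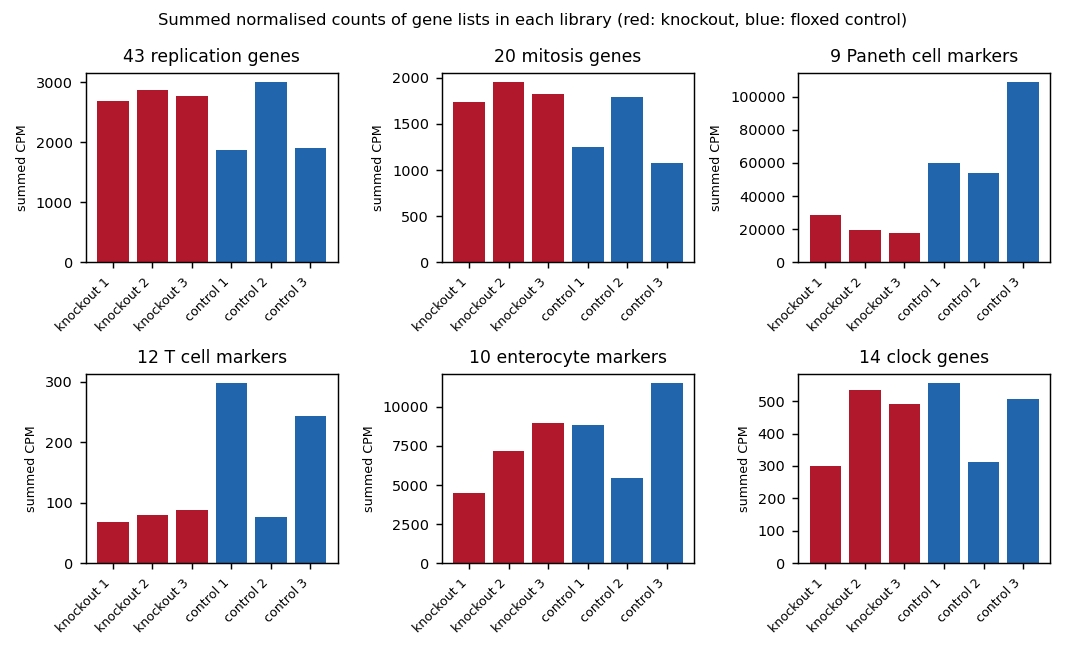
Summed CPM (vertical axes, from 0) of the 43 replication genes, the mitosis genes and 4 marker lists in each library, with knockouts in red left of floxed controls in blue. Replication and mitosis genes are low in floxed controls 1 and 3, T cell markers are high there, and Paneth cell markers separate the groups. The sums of clock genes and of enterocyte markers are lowest in knockout 1 and floxed control 2.

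A further 56 replication genes, listed by role outside the 43, were all tested. Of these 48 had a positive log2 fold change (85.7%, against 48.1% of all genes) and the median was 0.27. By edgeR 0 were called (0.0155% of all genes). DESeq2 called 2, Cdc7 and Dbf4 (against 2.64% of all genes, and 0.294% as higher in the knockouts). At an unadjusted p under 0.05, 14 were higher and 1 lower in the knockouts by edgeR. In 13 of the 56 every knockout was above every floxed control (23.2%, against 6.99% of all genes). In 1, the nucleotide kinase Cmpk1, every knockout was below, as in 10.3% of all genes.

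The kinase and firing factors that turn a licensed origin into a fork included 6 of these 13. Dbf4, the activating subunit of the kinase that phosphorylates the Mcm ring, had 35, 43.5 and 42.8 CPM in knockouts 1, 2 and 3, against 24.3, 26.1 and 21.7 CPM in floxed controls 1, 2 and 3. Here floxed control 2 resembled the other controls, unlike for most of the ring genes themselves. The log2 fold change of Dbf4 was 0.75 ± 0.17 (95% interval 0.38 to 1.12, unadjusted p = 0.00092 and adjusted p = 0.121 by edgeR). Cdc7, the catalytic subunit of that kinase, had 12, 16.6 and 14 CPM in the knockouts, against 7.42, 8.85 and 4.23 CPM in the floxed controls, without overlap (log2 1.04 ± 0.27, edgeR adjusted p = 0.145). Topbp1, a scaffold of origin firing and checkpoint signalling, had 84.1, 105 and 87 CPM in the knockouts, against 70, 64.3 and 45.5 CPM in the floxed controls (log2 0.62 ± 0.19, edgeR adjusted p = 0.197). Mtbp, a firing factor, had 15.8, 15.3 and 18.9 CPM in the knockouts, against 9.08, 13.9 and 8.57 CPM in the floxed controls (log2 0.66). Donson, which helps to assemble the active helicase, had 16.5, 19 and 17.7 CPM in the knockouts, against 12.8, 13.4 and 11.1 CPM in the floxed controls (log2 0.51). Recql4, a helicase of initiation, had 14.7, 14.8 and 14.7 CPM in the knockouts, against 9.69, 13 and 8.47 CPM in the floxed controls (log2 0.49). The groups of these 3 genes did not overlap either. Ticrr, the partner of Mtbp, had 0.34 and overlapped. All 7 genes of this step had knockout 1 above floxed control 2, as did 44.6% of all genes. Without floxed controls 1 and 3 Dbf4 and Cdc7 had log2 fold changes of 0.69 and 0.74, against the single control left.

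The other genes of the wider list with an unadjusted p under 0.05 were 6 fork genes, Nasp, Pold3 and Samhd1. Top2a, the topoisomerase that untangles copied DNA, had 303, 352 and 324 CPM in the knockouts, against 205, 281 and 159 CPM in the floxed controls (log2 0.60 ± 0.22, edgeR adjusted p = 0.256). Nasp, a histone chaperone, had 63.2, 93.1 and 103 CPM in the knockouts, against 49.2, 71 and 42.7 CPM in the floxed controls, where floxed control 2 passed knockout 1 (log2 0.67 ± 0.23, edgeR adjusted p = 0.241). Timeless, of the fork protection complex, had 23, 29.3 and 25.1 CPM in the knockouts, against 20.1, 20.5 and 14.4 CPM in the floxed controls (log2 0.49). Its partner Tipin had 16.4, 21.5 and 22.1 CPM in the knockouts, against 11, 17.2 and 12.2 CPM in the floxed controls (log2 0.56), and there floxed control 2 passed knockout 1. Clspn, a checkpoint adaptor at the fork, had 23.8, 39.1 and 31.6 CPM in the knockouts, against 22.4, 23.6 and 17.3 CPM in the floxed controls (log2 0.57). Knockout 1 and floxed control 2 were nearly level for Clspn. Wdhd1, which links polymerase alpha to the helicase, had 29.5, 37.1 and 33.6 CPM in the knockouts, against 21.8, 27.7 and 14.2 CPM in the floxed controls (log2 0.65). Dna2, a nuclease of flap processing, had 23.8, 27.7 and 24.8 CPM in the knockouts, against 21.3, 20 and 15 CPM in the floxed controls (log2 0.44). Pold3, a subunit of the lagging strand polymerase, had 55.3, 71.4 and 60.3 CPM in the knockouts, against 46.4, 54.5 and 37.4 CPM in the floxed controls (log2 0.43). The groups of Wdhd1, Dna2 and Pold3 did not overlap, with floxed control 3 the lowest library for each. Samhd1, an enzyme that breaks down deoxynucleotides, was the gene at the other end, with 59.6, 61.9 and 52.6 CPM in the knockouts, against 82.4, 58.6 and 96.8 CPM in the floxed controls (log2 -0.45 ± 0.19, unadjusted p = 0.0418 and adjusted p = 0.344 by edgeR). Its high libraries were floxed controls 1 and 3, as for Rfc1. The E2F genes and their partners had a median of 0.22 over 8 genes. E2f1, E2f3, E2f7 and E2f8 lay between 0.065 and 0.29, and E2f2 was at -0.019.

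Genes of mitosis, the next stage of the division cycle, had a median log2 fold change of 0.50 over 20 genes. All 20 were positive (48.1% of all genes) and 0 were called by edgeR (0.0155% of all genes). DESeq2 called 2 of the 20 (2.64% of all genes), and 10 were higher in the knockouts at an unadjusted p under 0.05 by edgeR (4.09% of all genes). Without floxed controls 1 and 3 their median was 0.19. The difference between this median and that of the replication genes was not tested.

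**Figure D5:**
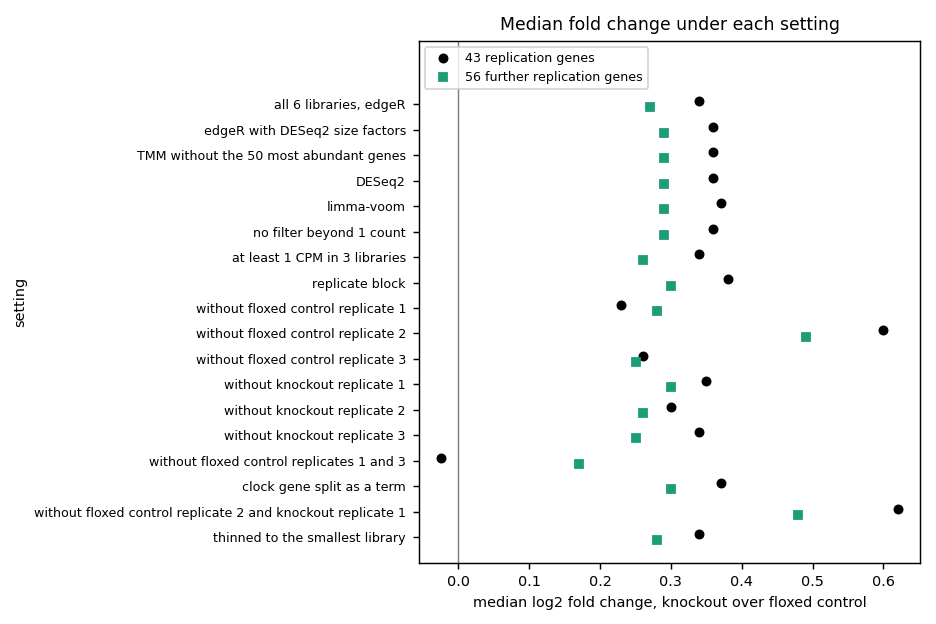
Median log2 fold change (horizontal axis) of the 43 replication genes (circles) and the 56 further replication genes (squares) under each setting (vertical axis). Most settings keep the 43-gene median between 0.23 and 0.38, while leaving out floxed control 2 gives 0.60, leaving out floxed control 2 and knockout 1 gives 0.62 and leaving out floxed controls 1 and 3 gives -0.024.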

How the data were processed

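Per the labels' protocols, mRNA libraries of small intestinal crypts (6 in all) were read on the DNBSEQ platform as single ends of 50 bp. The authors deposited 1 table of estimated counts (expected counts) per gene, made with mm10 per the submitters' processing notes. Its aligner, counter, annotation and use of strand are not stated. Between 31.1% and 35.2% of a library's values are not whole, so values were rounded before the count tests. Genes of the Fpr family and of the mitochondrial genome were not analysed here.

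The members and lists were chosen with earlier results of these data known. Groups follow the sample titles. edgeR 4.0.16 in R 4.3.3 was run on the whole table: filterByExpr kept 12943 of 17526 genes, TMM set the scaling, and robust glmQLFit with glmQLFTest gave p-values, adjusted by Benjamini-Hochberg over all genes kept. The biological coefficient of variation was 20.3%. Fold changes carry SE, CPM carry SD (n = 3), and 95% intervals use the test's degrees of freedom. Levels per length use the union of GENCODE M21 exons. Of the gene IDs, 17473 matched RefSeq for GRCm38.p6, the source of coordinates. Exons of 15 of the 43 genes overlap another gene. The 251 genes to which DESeq2 1.42.0 assigns no adjusted p stayed without one. The test was checked on simulated counts with 200 changed genes.

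Values per library are given for the 2 genes of smallest p in each of 8 steps, genes with an unadjusted p under 0.05 or a negative fold change, those of highest and lowest level per length, and further genes by the same p rule. Mcm5, Rfc4, Pold2, Cdt1 and E2f2, and the genes given by fold change alone, were chosen after their values were seen. Summaries used Python 3.11.15 with scipy 1.17.1, pandas 2.3.3 and numpy 2.4.6, and figures matplotlib 3.10.9. Alternatives were DESeq2, limma-voom (limma 3.58.1), other scalings and filters, the replicate number as a block, libraries left out, the clock split as a term and, added after the data were seen, thinning. The clock split and the pairs of libraries left out together follow no label and rest on levels in these same libraries.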

Additional observations from a re-analysis of the deposited data

How the results depend on the processing

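The count of replication genes called was 0 in every setting but the ones without floxed control 2: it was 17 without that library and 11 without it and knockout 1. Their median log2 fold change lay between 0.23 and 0.60 when 1 library was left out. It was -0.024 without floxed controls 1 and 3 and 0.62 without floxed control 2 and knockout 1. The number at an unadjusted p under 0.05 by edgeR was 7 with all 6 libraries (16.3%, against 13.7% of all genes in either direction). It lay between 1 and 36 when 1 library was left out. It was 11 by DESeq2 and with no filter beyond 1 count, 12 with the clock split as a term, and 33 without floxed control 2 and knockout 1. The share of all genes at that threshold was not worked out for fits with libraries left out, so 36 and 33 stand without a background. Of the further replication genes, 0 to 8 were called with single libraries left out, 2 by DESeq2 and 7 without floxed control 2 and knockout 1, and their median ran from 0.25 to 0.49, with 0.48 without that pair and 0.17 without floxed controls 1 and 3. Over all genes the 2 calls became 342 by DESeq2, 67 with no filter beyond 1 count, 1 with the clock split, 12 without floxed controls 1 and 3 (where the spread is that of the knockouts), 920 without floxed control 2 and knockout 1, and 0 with DESeq2 size factors or TMM without the 50 most abundant genes. When 1 library was left out they lay between 0 and 955, the highest without floxed control 2. Without floxed controls 1 and 3 the log2 fold changes of Fen1, Pcna, Rfc1, Rrm1 and Samhd1 took the other sign (-0.057, -0.11, 0.14, -0.034 and 0.047). The causes were not tested. With the replicate number as a block 39 genes were called over all genes and 0 of the 43. Deviations of same-numbered libraries correlated at -0.177, -0.272 and 0.0681, so the numbers were not taken as pairs. No setting reversed the other 30 genes named. Among the 43, Gins3 had the lowest count in a library, 38.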

Other observations

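E2f2, which encodes an activating E2F factor, followed the clock split and not the genotype. It had 105, 58.2 and 52.8 CPM in knockouts 1, 2 and 3, and 52.1, 109 and 57.5 CPM in floxed controls 1, 2 and 3 (log2 fold change -0.019 ± 0.32, edgeR adjusted p = 0.988). Knockout 1 and floxed control 2, the libraries with the lowest sums of clock genes and of enterocyte markers, were the high ones. Their lower level was 1.81 times the highest level of the other 4 libraries, which ranked 5 among 12943 genes tested. Only 13 genes (0.1%) reached 1.5 times by this measure, while 115 genes (0.889%) were as far below in that pair. Of the 99 replication genes looked at, E2f2 was the only 1 to reach it, and the largest value among the 43 was 1.09. The gene was picked out after its values were seen.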
